A study of Musca domestica with 24 samples.

Results

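Muller element A is the set of genes that sits on chromosome III of the house fly, Musca domestica, and in the strain studied, IIIM (3-6), this chromosome carries the male determiner. Its genes were taken as those whose identifier starts with LOC and whose element is given as A in the authors' tables, and a gene was kept in a tissue when its normalized count reached 10 in at least 3 of the 12 libraries of that tissue. Of 2260 such genes among the 16540 in the tables, 1863 were kept in the abdomen and 1821 in the head, 1693 of them in both and 1991 in at least 1 tissue. They made up 14.86% of the genes kept in the abdomen and 14.88% of those kept in the head. The other 11 genes of element A carry another symbol, among them yp3 and para-like, and were not counted as members. Among members kept in the abdomen, 1665 were protein-coding, 19 were long noncoding RNA genes and 4 were pseudogenes in the reference gene table, and 175 did not match it. In the head these numbers were 1629, 18, 3 and 171. The matched entries name no product for these identifiers, so the genes are described by identifier, class and level, without a function.

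Muller elements are the chromosome arms whose gene content is largely conserved across flies, and element A is the arm that forms the X chromosome of Drosophila melanogaster. In the house fly the male determiner can lie on different chromosomes, and a chromosome that carries it is passed from father to son and acts as a young Y chromosome, while its partner in the same male lacks the determiner. The determiner acts by switching off the female splicing of Md-tra, the house fly transformer gene, which is needed for female development. Loss of Md-tra activity therefore turns genotypic females into phenotypic males that have no chromosome with the determiner. Genotypic males of a IIIM strain hold 1 chromosome III with the determiner and 1 without, and genotypic females hold only the kind without.

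Poly(A) RNA was sequenced from the abdomens and heads of single flies, in 4 groups of 3 flies per tissue that the design describes as biological replicates. All flies were of the same strain and all had received double-stranded RNA. GFP females were genotypic and phenotypic females treated against GFP, a sequence foreign to the fly, and GFP males were genotypic and phenotypic males with the same treatment. The other groups were phenotypic males treated against Md-tra, and their libraries carry the codes N and SR. The sample titles make N the genotypic females and SR the genotypic males, but the column headers of the authors' comparisons call SR the sex-reversed males and N the normal males. The conflict bears on every statement about the chromosome with the determiner, so the groups are called N and SR and both assignments are given. The age of the flies is not given in the sources used here, and Md-tra itself is not analysed here.

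The deepest abdomen libraries were those of GFP females (56719614 to 77407229 reads), followed by SR (24100066 to 41657177) and GFP males (20916287 to 31364368). The N abdomens were shallow in replicates 1 and 3, with 2689265 and 2756581 reads against 16113838 in replicate 2, so that 1 read was worth 7.83 and 7.77 normalized counts there. Head libraries ranged from 12080603 reads in N replicate 2 to 79454339 in GFP male replicate 3. The neural gene para-like stood at 4855, 2233 and 3287 in GFP female heads against 12129.7, 19754 and 14661 in GFP males, 11369, 14418 and 16997 in N and 3878, 16272 and 8427 in SR. The yolk protein gene yp3, made in female fat body and ovary, was uneven among heads, with 192977, 2141 and 28506 in GFP females and 1657, 45604 and 3424 in SR, against 1207, 599 and 301 in GFP males and 657, 222 and 162 in N. Thus 1 GFP female head and SR head replicate 2 stood above the others in yp3. In abdomens bcd, the maternal anterior determinant made in the ovary, was at 2969, 2225 and 3315 in GFP females, at 0, 5.07 and 0 in N, and had no read in GFP males or SR. The part of these markers in the results below was not tested.

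Element A as a whole took a larger share of reads in GFP female abdomens than in male ones. Its genes received 14.7% to 16.9% of reads in the female abdomens. The shares were 10.3% to 11.5% for GFP males, 10.7% to 11.5% for SR and 10.5% to 13.3% for N. Abundant genes weigh on these shares. LOC101890831 and LOC101891006 had 878694 and 812600 of the 68362465 reads of GFP female replicate 2. In replicate 3 they had 64485 and 40686 of 56719614. In heads the share lay between 11.1% and 12.5% in all groups. The median level of the members, as log2(normalized count + 1), was set against the median of elements B to F within each library. It was -0.02, 0.03 and 0.05 in the GFP female abdomens, and between -0.24 and -0.10 in the 9 male abdomens. The GFP females and the males did not overlap. Neither measure was taken for each of the other elements alone. By single genes, the median log2 difference of GFP females minus GFP males in the abdomen was -0.24 for members and -0.13 for element D. In heads the difference ran from -0.29 to -0.21 for N, -0.27 to -0.19 for SR, -0.27 to -0.15 for GFP females and -0.21 to -0.12 for GFP males, and the ranges of the groups overlapped except those of N and GFP males. Requiring a value of 10 in 6 libraries moved the mean of the GFP female abdomens from 0.02 to -0.04.

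**Figure D1:**
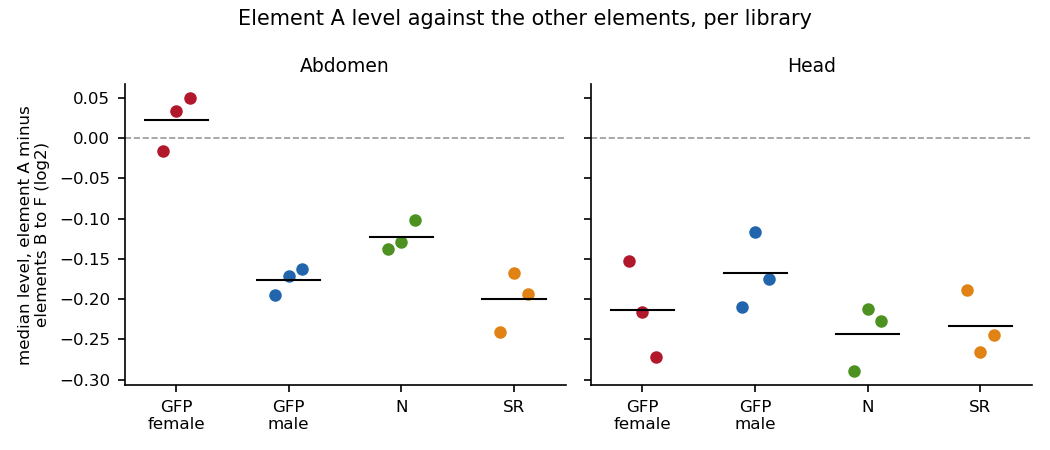
Median level of element A genes minus the median level of genes on elements B to F in each library (log2 scale, y axis), for the 4 groups in the abdomen (left) and the head (right). Points are libraries, n = 3 per group, and black lines are group means; the GFP female abdomens lie at -0.02 to 0.05 and the male abdomens at -0.24 to -0.10.

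Members differed widely in level. In GFP female abdomens the lower quartile of the members was 11.7 normalized counts and the median 419.7, and 60 members had no read in any of the 3 libraries. In GFP male abdomens the lower quartile was 97.8 and the median 319.96, and 2 members had no read. The filter bears on these numbers, since a gene without female reads could be kept through GFP males, N or SR, all phenotypic males. The median of elements B to F was 428.5 in GFP female and 360.4 in GFP male abdomens. Genes without a read were not counted for the other elements. The most abundant member of the abdomen, LOC101894605, had 12948, 4091 and 3755 in GFP females, 123693, 87418 and 140133 in GFP males, 121014, 160901 and 214721 in N and 72491, 31654 and 79229.8 in SR, so that the female libraries lay below all male ones. LOC101889408 was among the 5 most abundant members of both tissues, at 179788, 104892 and 132673 in GFP female heads and 149561, 140877 and 152770.0 in GFP male heads, where the groups overlapped. LOC109612647 entered the top 5 of the head through SR replicate 2 with 37.6, 650933 and 3.56 in the 3 SR heads, and was also uneven in GFP females, at 1622, 81957 and 9517.

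The first comparison asks how members differed between the sexes under control treatment. A gene is called here when its limma p-value, adjusted by the Benjamini-Hochberg method over all genes kept in the tissue, was below 0.05. In the abdomen 1481 of the 1863 members were called between GFP females and GFP males, 700 higher and 781 lower in females, which is 37.6% and 41.9% of members. Over all genes tested, 33.4% were called higher and 44.3% lower. Under TMM scaling the majority of the called members turned, with 841 higher and 700 lower in females. Elements B to E had 33.7% to 37.1% higher and 39.8% to 43.3% lower. The median log2 difference was -0.24 for members and -0.61 for all genes. Elements B to E had medians of -0.47 to -0.13, a range that includes the members, and genes without an element had -2.85. Under TMM scaling the medians of members and of all genes became 0.29 and -0.10. The sign of the median of members thus depends on the scaling, while its distance from all genes stayed at 0.37 and 0.39. Each abdomen pools its tissues, so fewer cells of a type and less RNA per cell cannot be told apart. The called members had a median absolute log2 difference of 2.90, and 723 of them differed by 3 or more.

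Among members higher in GFP female abdomens, LOC101897389 was even between flies, at 14236, 13156 and 12444 in females against 5.74, 22.5 and 11.8 in GFP males, 7.83, 18.6 and 23.3 in N and 12.2, 11.5 and 19.2 in SR. Every female library lay far above every male library, and the log2 difference between females and GFP males was 10.03 ± 0.52 (SE, limma, Benjamini-Hochberg adjusted p = 3.01e-07). LOC101890831 and LOC101891006 reached higher values but varied between females, at 119725, 211007 and 18336 and 191343, 195135 and 11568, against at most 49.8 and 72.4 in GFP males. LOC101900378, LOC105262581 and LOC101889949 completed the 6 members with the largest rise in females, and LOC101900378 was uneven among the females, at 27459.7, 3572 and 161. These 6 genes were also near absent from N and SR, where the highest of their values was 104.7, for LOC101890831 in N replicate 2.

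Some of the members lower in GFP female abdomens had no female reads at all, and 60 members had none there. LOC101891631 had no read in any GFP female, 861, 1257 and 1901 in GFP males, 8132, 4826 and 5207 in N and 1784, 397 and 1610.2 in SR. N lay above the other male groups, which overlapped. LOC101888152 followed the same order, at 0.206, 0 and 0 in GFP females, 828, 880.3 and 1492 in GFP males, 6432, 3289 and 4088 in N and 1488, 450.3 and 1488 in SR, and so did LOC101896325, with up to 3.7 in females and 12182, 6718 and 6902 in N. LOC101887550 had 148519, 88579.6 and 205306 in GFP males against 276, 5.52 and 40.7 in GFP females. Its other male libraries were scattered, at 124790.0, 12758 and 3326 in N and 1681, 679 and 21209.8 in SR. LOC101900298 and LOC109612167 were likewise at or near 0 in females, and GFP male values reached 7151 and 4229. By limma with Benjamini-Hochberg adjustment, the adjusted p of these 6 genes ranged from 1.90e-07 for LOC101888152 to 8.24e-05 for LOC101887550.

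In the head 555 of 1821 members were called between the GFP sexes, 245 higher and 310 lower in females. This is 13.5% and 17.0% of members, where all genes had 11% called higher and 14.6% called lower and elements B to E had 8.04% to 12.4% higher and 12.5% to 15.2% lower. LOC101889437, a protein-coding gene, had 0, 2.67 and 10.2 in GFP female heads against 572, 529 and 603 in GFP male heads. LOC105262139 had 2.70, 6.67 and 1.85 against 579.6, 439 and 477, and the long noncoding RNA gene LOC101892644 had 1.35, 8.004 and 13.0 against 829, 732 and 716. All of these female libraries lay far below the male ones. The log2 difference between females and males was -7.36 ± 0.70 (SE, limma, Benjamini-Hochberg adjusted p = 0.000804) for LOC101889437.

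Members higher in GFP female heads included LOC101889640, at 33398, 10392 and 3385 in females against 3.21, 6.03 and 5.22 in males, and LOC101889813, at 89118, 9009 and 7793 against 7.81, 11.1 and 8.95. LOC105261940 stood at 53294, 1538 and 1848 against 105, 127 and 113. In each of these 3 genes GFP female replicate 1, the head with the most yp3, was the highest, and among the SR heads replicate 2, the other head with much yp3, was the highest, at 641.8, 2783 and 229.7. LOC101900203 was even among females, at 201, 276 and 202 against 2.76, 5.53 and 2.98 in males. The count of members called in heads changed with the library left out. It fell to 127 without GFP male replicate 2, 214 without GFP female replicate 2 and 223 without GFP male replicate 3. Without GFP male replicate 1 or GFP female replicate 3 it was 302 and 341, and it rose to 650 without GFP female replicate 1. There were 125 members called whichever library was left out, and LOC101889437, LOC105262139 and LOC101889640 were among them.

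Between the sexes under GFP treatment, 391 of the 1693 members kept in both tissues were called in both. Of these, 89 were higher and 93 lower in females in both tissues, 121 were higher in the female abdomen and lower in the female head, and 88 were the reverse. Members called in both were 23.1% of those kept in both, against 19.1% of all 11178 genes kept in both and 17.0% to 19.3% on elements B to E. Those with the same sign were 10.8% of members and those with opposite signs 12.3%, against 8.87% and 10.2% of all genes. The tissues were scaled separately, and the difference between tissues was not tested.

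The second comparison sets the Md-tra treated groups, both phenotypic males, against each other, and by either assignment they differ in genotypic sex. In the head, 16 members were called, 12 higher and 4 lower in N than in SR, among 37 genes called in all. This is 0.659% and 0.22% of members, where all genes had 0.245% called higher and 0.0572% called lower. Element B had 1 gene called, element C 4, element D 0, element E 1, and the genes without an element 15. So element A held 43.2% of the called genes and 14.9% of the genes tested. The genes without an element came near the members, with 0.719% of 2085 genes called against 0.879% of members. The 16 members had a median absolute log2 difference of 2.70, and in all 16 the N and SR libraries did not overlap. Lack of overlap adds little to the call, since nearly all called members show it. It held for 237 of 237 called for N against GFP males in the head and 1400 of 1440 for SR against GFP females in the abdomen.

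**Figure D2:**
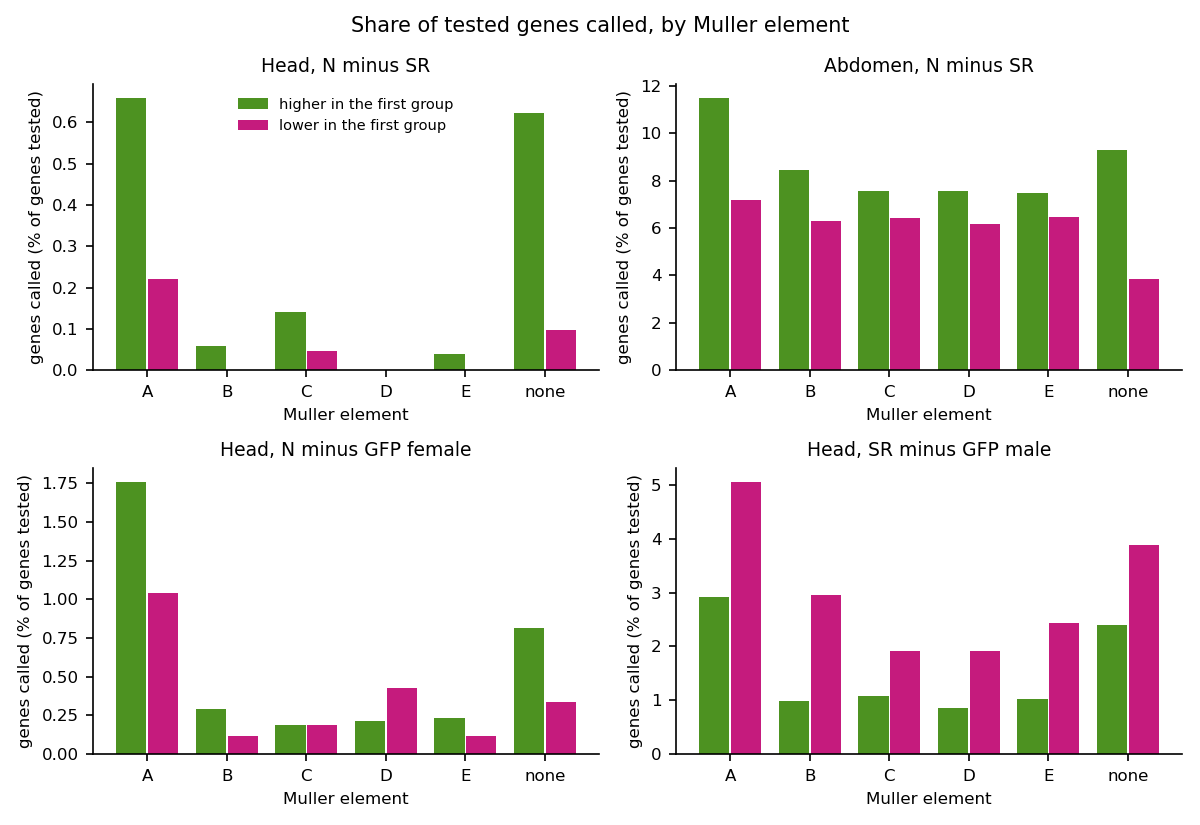
Percentage of tested genes called (y axis) on each Muller element and among genes with no element (x axis), higher (green) or lower (pink) in the first group of each of 4 comparisons. Element F, with 34 genes tested, is left out; on element A 0.659% of genes were higher and 0.22% lower in N than in SR in the head, and 11.5% and 7.19% in the abdomen.

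The largest of these head differences was that of LOC101889437, which had 632, 675 and 571 in N and 2.82, 4.54 and 1.78 in SR. N thus lay at the level of GFP males, and SR at that of GFP females. The log2 difference between N and SR was 7.33 ± 0.70 (SE, limma, Benjamini-Hochberg adjusted p = 0.00228). LOC105262139 stood at 402, 244 and 445 in N and 5.64, 3.89 and 8.91 in SR, again near GFP males and GFP females respectively, with a log2 difference of 5.69 ± 0.45 (SE, limma, Benjamini-Hochberg adjusted p = 0.000767). LOC101896154, at 177, 206 and 97.5 in N and 4.70, 18.8 and 7.13 in SR, had 102, 76.4 and 103 in GFP males against 8.10, 18.7 and 11.1 in GFP females. Its log2 difference between N and SR was 3.98 ± 0.53 (SE, limma, Benjamini-Hochberg adjusted p = 0.0152).

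LOC101889243, LOC101890607, LOC105262026, LOC101887605, LOC101899360, LOC101899975, LOC101896358, LOC101890114 and LOC101895041 were the other members higher in N heads, by 1.27 to 3.30 on the log2 scale. LOC101899975 had 390.3, 483 and 502 in N and 122, 127 and 128 in SR, with 400.5, 432 and 419 in GFP males and 75.6, 141 and 120.4 in GFP females. LOC101890114 had 787, 886 and 1142 in N, 348, 336 and 424 in SR, 1004, 1018 and 924 in GFP males and 279.6, 251 and 294 in GFP females. In both genes the N libraries lay above all SR and GFP female libraries. LOC105262026 had 221, 252 and 277 in N, which is above the 129.5, 124 and 128 of GFP males as well as the 44.2, 18.8 and 37.4 of SR.

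The 4 members lower in N heads were LOC101889946, LOC101896416, LOC101890423 and LOC101900203. LOC101889946 had 20.6, 50.4 and 37.8 in N and 230.2, 281 and 319 in SR, with 38.1, 49.2 and 39.5 in GFP males and 163, 223 and 245 in GFP females. Its log2 difference was -2.97 ± 0.35 (SE, limma, Benjamini-Hochberg adjusted p = 0.00677). LOC101896416 had 950.1, 949 and 1002 in N and 1922, 1879 and 2240.4 in SR, with 905, 861 and 957 in GFP males and 2135, 2305 and 1705 in GFP females. In all 4 genes the N libraries lay within or near the range of GFP males and below every SR and GFP female library. LOC101900203 was highest in SR replicate 2, at 238.8 against 55.4 and 60.6 in the other SR heads.

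The comparison of the GFP sexes uses other flies than that of N and SR, so their signs can be set side by side. For all 16 members, N lay on the same side of SR as GFP males lay of GFP females, and 14 of the 16 were also called between the GFP sexes in the head. The same held for the 21 called genes outside element A, all of which had N on the side of GFP males. LOC101892644 was not called and had 1 library apart from the others of its group, with 1342, 1563 and 1106 in N and 2.82, 1.30 and 371 in SR, with a log2 difference of 6.48 ± 1.54 (SE, limma, Benjamini-Hochberg adjusted p = 0.21).

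**Figure D3:**
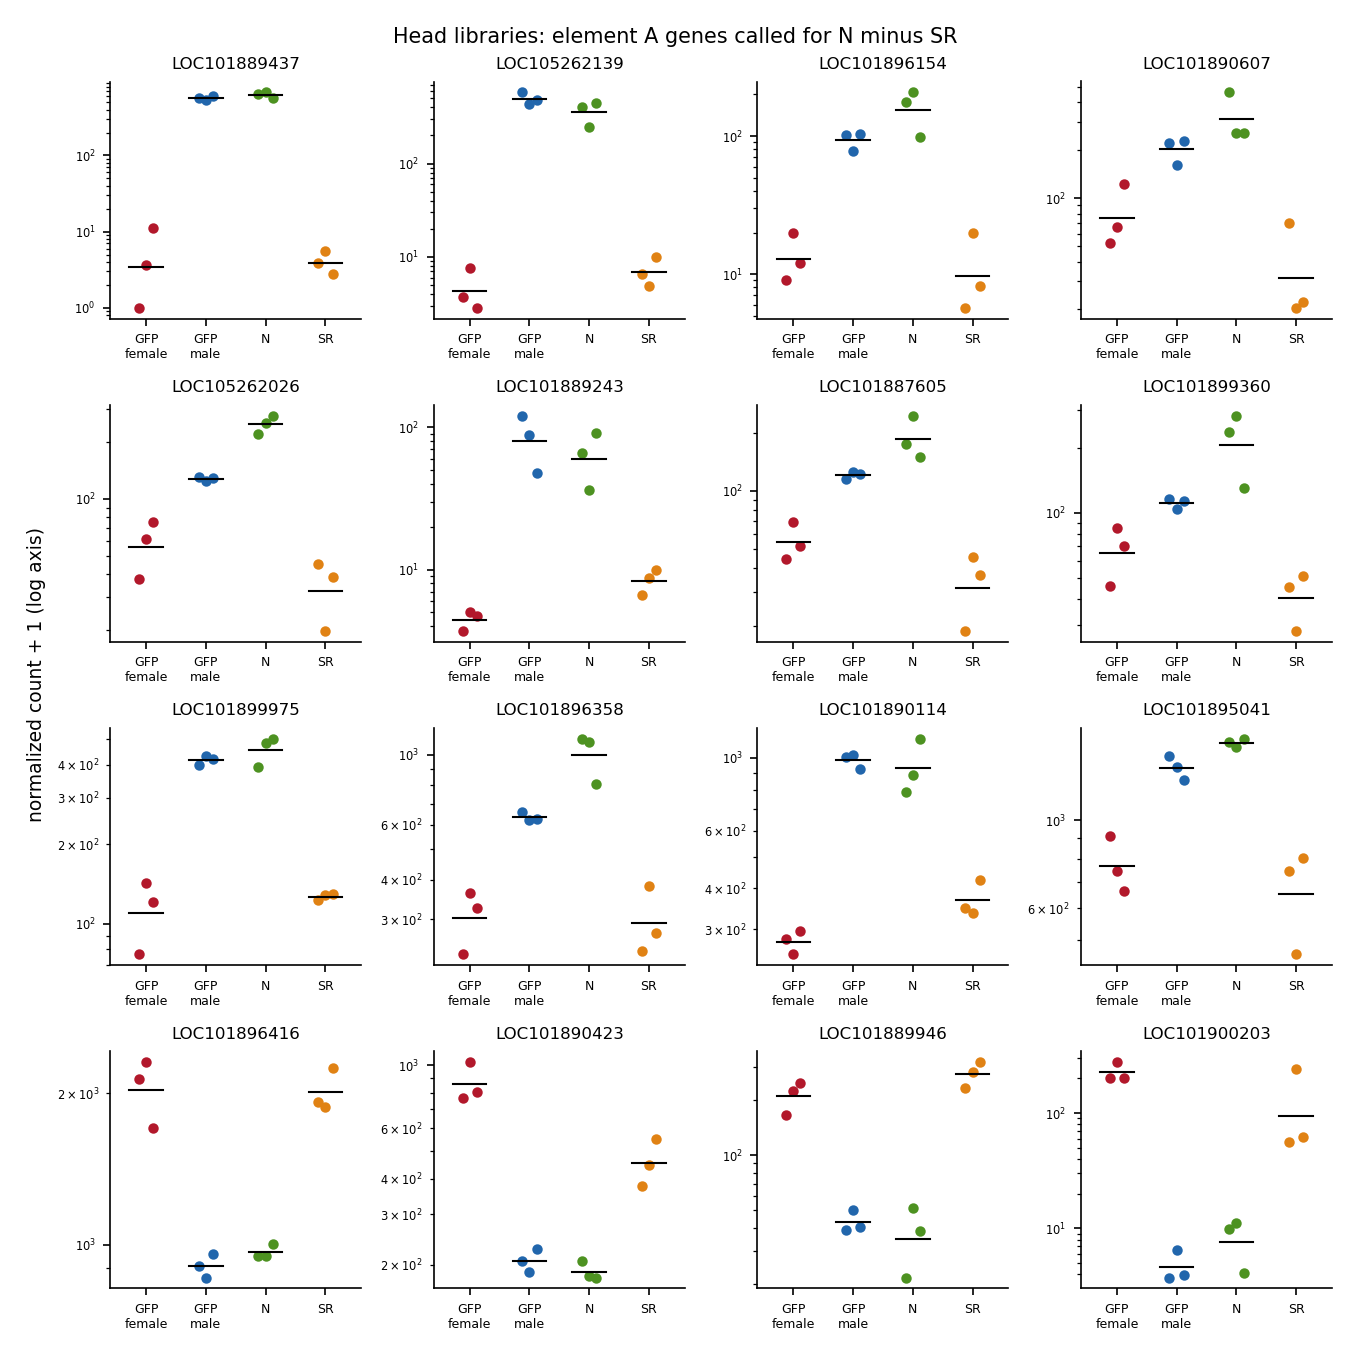
Normalized count + 1 (log axis) in each head library of the 16 element A genes called between N and SR, ordered from the most raised to the most lowered in N. Points are libraries, n = 3 per group, and black lines are means on the log scale; in all 16 genes N lies on the side of GFP males and SR on the side of GFP females.

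The head calls depended on the fit. Of the 16 members, edgeR on the recovered reads called 11, DESeq2 called all 16 among 90 members, a fit of N and SR alone called 1 and a fit with the number in the library code as a block called 0. N and SR share only 2 of the library code numbers, so the block by code is partly tied to the groups compared. With the replicate number as a block 10 of the 16 were called. Leaving out N replicate 2 left 3 of the 16, and leaving out N replicate 1 or 3 left 6. Without SR replicate 1 or 3 there were 7 members called, 5 of them among the 16, and without SR replicate 2, the head with much yp3, there were 15, 11 of them among the 16. LOC101889437, LOC105262139 and LOC101889946 were called whichever library was left out.

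In the abdomen 348 members were called between N and SR, 214 higher and 134 lower in N. That is 11.5% and 7.19% of members, where all genes had 8.56% called higher and 6.05% called lower, and elements B to E had 7.46% to 8.44% higher and 6.16% to 6.47% lower. Of the 34 genes of element F, 14.7% were higher and 8.82% lower in N, and of the genes without an element 9.28% and 3.86%. Element A held 19.0% of the 1832 called genes. The median absolute log2 difference of the called members was 1.56, and 65 differed by 3 or more. In 218 of the 348 members N lay on the side of GFP males, as it did in 977 of the 1483 called genes outside element A. The ovary marker bcd was at 2225 or more in the GFP female abdomens of that comparison.

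Several members had reads in every N abdomen and much lower values, down to 0, in SR. LOC101900266 had 243, 96.2 and 85.5 in N, 21.5, 25.7 and 30.4 in GFP males, 0.413, 0.240 and 0.569 in GFP females and no read in any SR library, where the floor of 3 reads corresponds to 1.81 to 3.19 normalized counts. LOC101889580 had 118, 70.9 and 264 in N, 8.61, 8.04 and 30.4 in GFP males, 0, 0.604 and 0 in SR and no read in GFP females. These are genes on which SR resembled GFP females in having next to no reads, and N exceeded every GFP male library. LOC109613331 had 1731, 973 and 1259 in N, 258, 341 and 449 in GFP males, 41.0, 7.85 and 49.0 in SR and at most 0.206 in GFP females, and its log2 difference between N and SR was 5.60 ± 0.61 (SE, limma, Benjamini-Hochberg adjusted p = 0.00238). LOC101891599, LOC101887588 and LOC101893817 had the same order of groups, at means of 366, 85.7 and 148 in N against 10.4, 0.846 and 3.88 in SR. Reads in N were few for some of these genes. They were 9, 23 and 19 for LOC101887588, 15, 42 and 34 for LOC101889580 and 35, 45 and 12 for LOC101893817.

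Among members lower in N, LOC101898136 had 141, 118 and 54.4 in N and 2097, 3619 and 1195 in SR, with 578, 182 and 188 in GFP males and 3.92, 0 and 0.569 in GFP females. SR lay above every library of the other groups, and the log2 difference was -4.41 ± 0.71 (SE, limma, Benjamini-Hochberg adjusted p = 0.00671). LOC101893206 and the pseudogene LOC105262362 showed SR highest as well, at means of 390 and 138 against 23.7 and 8.44 in N. LOC101887882 had 193290.0, 112230.0 and 160334 in SR against 18473, 3987 and 894 in N, and LOC101894220 had 17704, 10049 and 22792 against 2695, 437 and 241, with N replicate 1 above the other N libraries in both. LOC101889813, which was high in GFP female heads, had 1335, 1568 and 436 in SR abdomens against 23.5, 8.44 and 15.5 in N and 4.31, 12.1 and 28.4 in GFP males, and 10403, 34.3 and 98.4 in GFP females. The yp3 values of the abdomens were 6253, 24021 and 7747 in SR, 3173, 669 and 777 in N, 1975, 273 and 679 in GFP males and 15574, 21.1 and 254 in GFP females, so that the same fly was the highest of the GFP females in both genes.

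**Figure D4:**
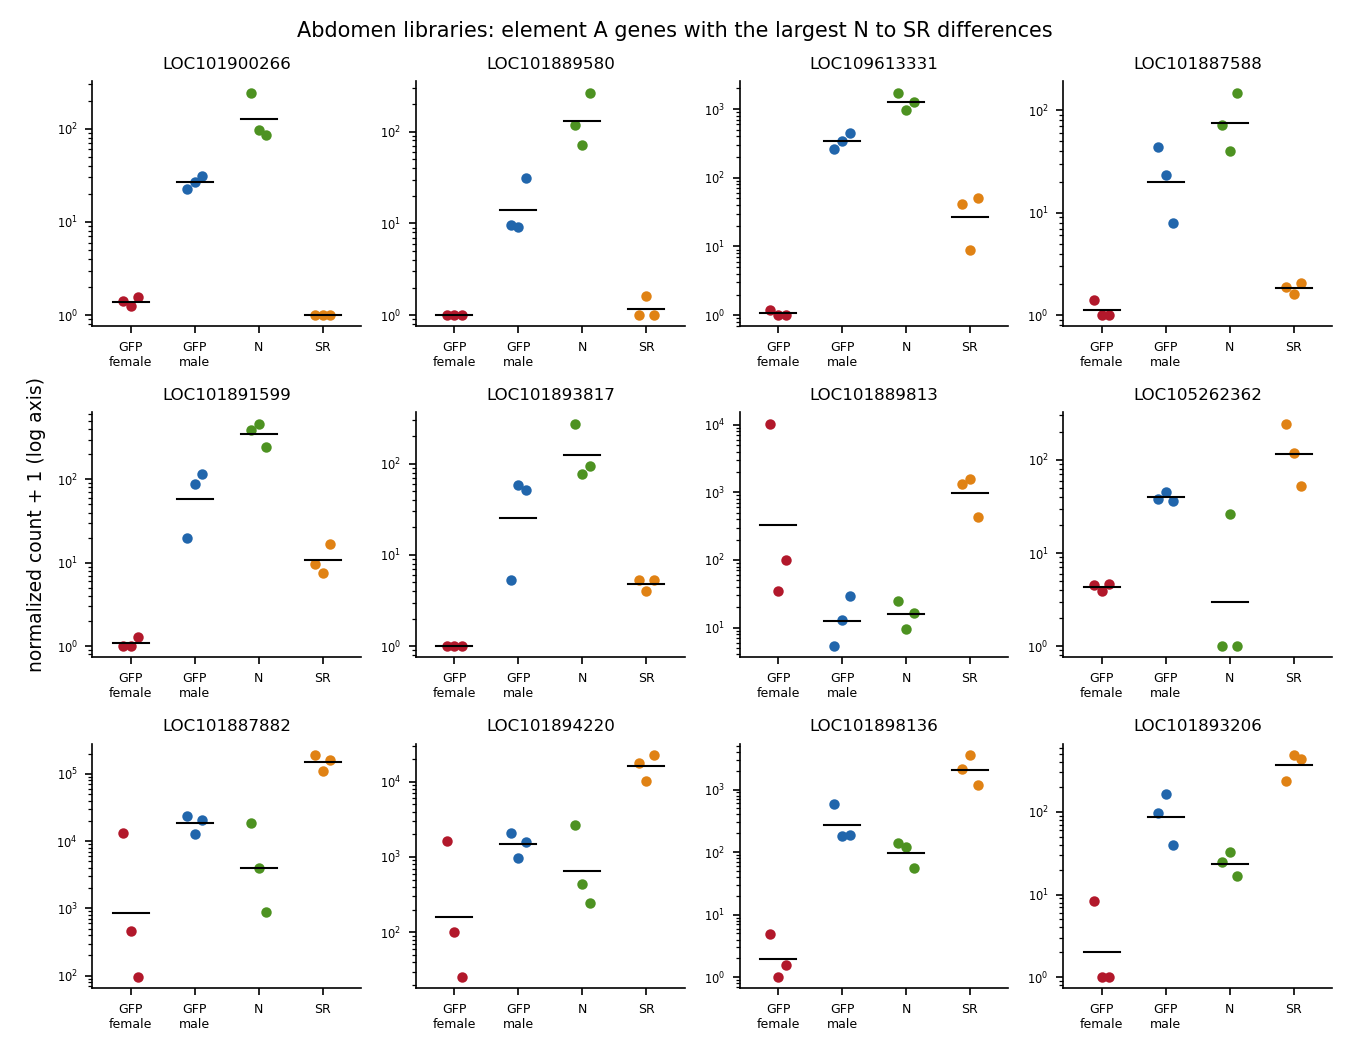
Normalized count + 1 (log axis) in each abdomen library of the 12 element A genes with the largest log2 differences between N and SR, 6 higher in N (first 6 panels) and 6 lower (last 6). Points are libraries, n = 3 per group, and black lines are means on the log scale; LOC101900266 has no read in SR and LOC101898136 is highest in SR.

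The number of abdominal calls changed with the libraries used. With N replicate 2 as the only N library, whose spread was assumed to be that of the other groups, 10 members were called, 9 of them among the 348, and a fit of N and SR alone called 29. Without SR replicate 2 the number was 120, without N replicate 3 it was 218, without SR replicate 1 it was 219, and 110 members were called whichever library was left out, among them LOC101900266, LOC101889580, LOC109613331 and LOC101898136. LOC101889813, LOC101887882 and LOC101894220 each lost the call in edgeR and without any of 5 of the 6 libraries.

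Between N and SR, 6 of the 1693 members kept in both tissues were called in both, and all 6 had the same sign in both. This is 0.354% of members, against 0.188% of all genes (21 of 11178), 0.649% of the genes without an element (11 of 1694) and 0 to 0.15% on elements B to E. LOC101890607, LOC105262026, LOC101899360, LOC101899975 and LOC101896358 were higher in N, and LOC101896416 was lower. LOC101896416 had 439, 520.1 and 326 in N abdomens, 1334, 1363 and 1404 in SR, 505, 654 and 538 in GFP males and 4095, 5148 and 5393 in GFP females, so SR lay between GFP males and GFP females in the abdomen and within the range of GFP females in the head. Its log2 difference in the abdomen was -1.70 ± 0.20 (SE, limma, Benjamini-Hochberg adjusted p = 0.00284). LOC101899975 had 1230.0, 584 and 847 in N abdomens, 179, 113 and 238 in SR, 324, 387 and 315 in GFP males and 206, 183 and 178 in GFP females, with a log2 difference of 2.32 ± 0.32 (SE, limma, Benjamini-Hochberg adjusted p = 0.0041). LOC101896358 had 306, 436 and 349.7 in N abdomens against 187, 174 and 156 in SR, and its N and GFP male libraries overlapped while both lay above SR and GFP females. LOC101899360 was the exception to the order of the groups, since it was highest in GFP female abdomens at 1178, 1838 and 1767 and lower in GFP female heads, at 44.6, 84.0 and 69.5, than in GFP male heads, at 115, 103 and 112.

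The head differences of LOC101889437 and LOC105262139 did not carry over to the abdomen. LOC101889437 had 752, 537 and 808 in N abdomens, 695, 509 and 711 in GFP males, 1088, 52.6 and 9.10 in GFP females and 1062, 935 and 8889 in SR, where it was among the highest. LOC105262139 had no read in GFP female abdomens, 7.18, 7.24 and 8.82 in GFP males, 0, 40.5 and 0 in N and 0, 0.604 and 0 in SR, and so had few reads in any abdomen. LOC101889946, lower in N heads, had 462, 115 and 163 in N abdomens and 685, 496 and 2112 in SR. Its N libraries thus lay below the SR ones in the abdomen as well, though it was not called there.

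The titles and the headers were then compared as assignments of genotype over all 12 libraries of a tissue, by counting genes whose 6 libraries on one side all exceeded the 6 on the other. By the headers GFP males and N are the genotypic males and GFP females and SR the genotypic females, and by the titles SR and N change places. This uses no test and says nothing about which assignment is correct. By the headers, 111 of 1821 members did not overlap in the head, 62 of them higher and 49 lower in the side of GFP males. This is 6.10% of members, where all genes had 1.86%, elements B, C, D and E had 0.81%, 1.07%, 0.319% and 0.945%, and the genes without an element had 2.25%. By the titles, 29 members did not overlap, 1.59% against 1.49% of all genes and 1.26% to 1.74% on elements B to E. Thus by the headers element A stood above each of the elements B to E in the head, and by the titles it lay within their range.

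In the abdomen, 121 of 1863 members did not overlap by the headers, 70 of them higher on the side of GFP males. This is 6.49% of members against 3.41% of all genes, 2.19% to 3.02% on elements B to E and 68 of the 2122 genes without an element. By the titles 141 members did not overlap, 7.57% against 6.75% of all genes and 6.31% to 7.14% on elements B to E. Of the 34 genes of element F, 4 did not overlap by the headers (11.8%) and 7 by the titles (20.6%). The absolute difference between the sides had a median of 1.38 on the log2 scale for the 111 head members and 2.56 for the 121 abdomen members by the headers, and 40 of the head members differed by less than 1. By the titles the medians were 0.78 in the head and 1.62 in the abdomen.

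**Figure D5:**
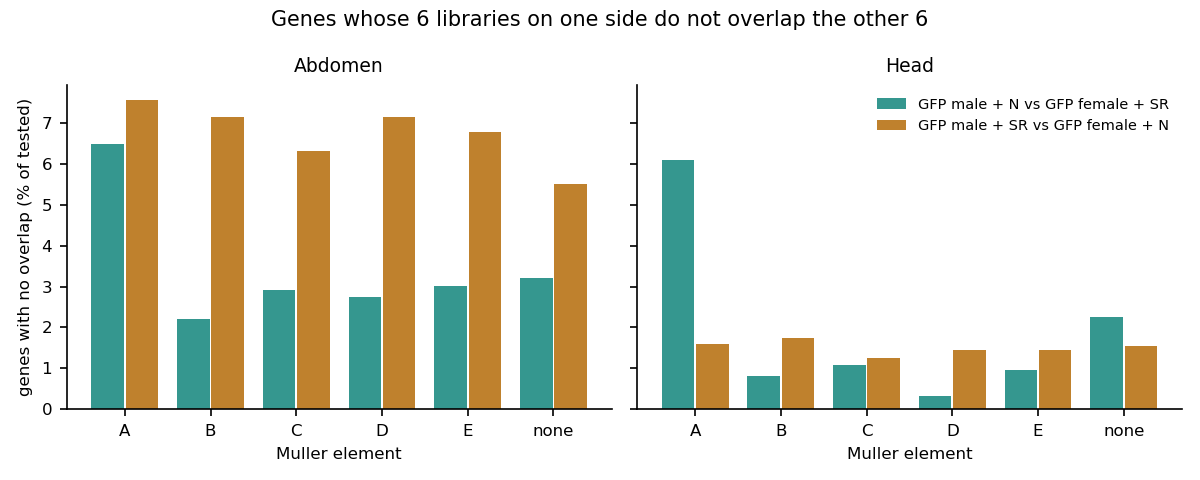
Percentage of tested genes (y axis) on each Muller element and with no element (x axis) whose 6 libraries on one side do not overlap the 6 on the other, in the abdomen (left) and head (right), for the assignment by the headers (GFP males and N against GFP females and SR) and by the titles (GFP males and SR against GFP females and N). Element A stands at 6.49% and 6.10% by the headers and at 7.57% and 1.59% by the titles; element F, with 34 genes, is left out.

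Requiring the lowest library of one side to exceed the highest of the other by a factor of 2, after adding 1, left fewer members. By the headers 15 members passed in the head, 10 higher and 5 lower on the side of GFP males, of 24 and 6 such genes in all (0.196% and 0.049% of genes tested). In the abdomen 16 passed, 14 higher and 2 lower, of 37 and 3 genes in all (0.295% and 0.0239%). Genes without an element came close to this share in the abdomen, with 16 of 2122 passing (0.754%) against 0.859% of members, and in the head 11 of 2085 passed (0.528%) against 0.824% of members. Elements B to E had at most 0.153% in the abdomen and 0.14% in the head. By the titles 1 member passed in the head, higher on the side of GFP males, of 1 higher and 1 lower gene in all (0.00817% each), and 4 in the abdomen, 2 in each direction, of 36 and 6 (0.287% and 0.0479%). No member passed in both tissues by either assignment.

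Without the factor of 2, 15 of the 1693 members kept in both tissues had no overlap in either tissue and in the same direction by the headers, 9 higher and 6 lower on the side of GFP males, among 37 such genes in all. This is 0.886% of members and 0.331% of all genes. The genes without an element had the same share, 15 of 1694 (0.885%), and elements B to E had 0 to 0.15%. By the titles there was none on element A and 1 in all (0.00895% of genes tested). The 15 were named after their values were seen, and 5 of them, LOC105262026, LOC101896358, LOC101899975, LOC101890607 and LOC101896416, are among those called between N and SR in both tissues. LOC101901710 had 392, 386 and 385 and 306, 446 and 661 in GFP male and N abdomens against 166, 119 and 115 and 161, 171 and 178 in GFP females and SR. In heads it had 693, 692 and 703 and 879, 838 and 802 against 447, 560.3 and 395 and 480.2, 676 and 574. LOC101900539 ran the other way, at 1155, 1251 and 1204 and 1236, 1294 and 1253 in GFP female and SR abdomens against 933, 973 and 975 and 744, 783 and 707 in GFP males and N, so the gap was small in both genes beside that of LOC101896416. The rest were LOC101889813, LOC101890423, LOC101892644, LOC101894640, LOC105262504, LOC101897075, LOC101889312 and LOC101896937.

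The remaining comparisons set each Md-tra treated group against the GFP groups. They share libraries with each other and with the comparisons above, so their counts are given side by side only. In the abdomen, SR differed from GFP males in 8 members, 3 higher and 5 lower, of 20 genes in all (0.0638% of genes tested were higher and 0.0957% lower). Same-numbered replicates of SR and GFP males deviated together here, though the sample titles state no pairing, and with the replicate block 5 members were called. LOC101899147 had 2916, 3592 and 2259 in SR, 298, 303 and 284 in GFP males, 204, 233 and 233 in N and 1487, 1599.8 and 1552 in GFP females. SR exceeded even the GFP females, the GFP male and N libraries lay far below, and the log2 difference between SR and GFP males was 3.28 ± 0.18 (SE, limma, Benjamini-Hochberg adjusted p = 3.05e-05). LOC105262251 had 86.1, 35.4 and 86.2 in GFP males and no read in any GFP female, N or SR abdomen, where the floor of 3 reads reached 23.5 normalized counts in N replicate 1. LOC101896805 and LOC101892000 were lower in SR than in every other group, at means of 3502 and 434 against 7362 and 989 in GFP males, and both lost the call in edgeR.

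SR heads differed from GFP male heads in 145 members, 53 higher and 92 lower, which is 2.91% and 5.05% of members against 1.51% and 2.98% of all genes. Elements B to E had 0.852% to 1.07% higher and 1.91% to 2.95% lower. Genes without an element came closer to the members, at 2.40% higher and 3.88% lower. Element A held 26.4% of the 550 called genes. LOC101889437, LOC105262139 and LOC109612167 had the largest drops in SR. LOC109612167 had 154, 253 and 37.7 in GFP males, 60.4, 15.1 and 12.6 in N, 1.35, 0 and 0 in GFP females and no read in SR. With the replicate block 68 members were called, and without GFP male replicate 1, 2 or 3 or SR replicate 3 there were 70, 16, 31 and 66.

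N differed from GFP males in 200 members in the abdomen, 117 higher and 83 lower, which is 6.28% and 4.46% of members against 5.11% and 3.76% of all genes. In the head 237 members were called, 67 higher and 170 lower, which is 3.68% and 9.34% against 4% and 7.68% of all genes. LOC109613437 was higher in N in both tissues, at 94.0, 40.5 and 148 against 2.87, 2.41 and 3.92 in GFP males in the abdomen and 256, 357 and 126 against 5.97, 4.02 and 4.48 in the head, and SR heads had 56.4, 233 and 48.1. LOC105262579 had 959, 1322 and 969 in N heads and 881, 1022 and 734 in SR heads against 53.7, 65.8 and 75.4 in GFP males and 196, 343 and 633 in GFP females, so that both Md-tra treated groups lay above both GFP groups. LOC101888371 was lower in N heads, at 2.95, 5.04 and 7.87 against 159, 514 and 276 in GFP males. The abdominal count fell to 2, 32 and 46 without GFP male replicates 1, 2 and 3 and to 77 and 25 without N replicates 1 and 3, and the head count to 118, 25 and 48 without GFP male replicates 1, 2 and 3 and to 50 and 30 without N replicates 1 and 2.

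N heads differed from GFP female heads in 51 members, 32 higher and 19 lower, which is 1.76% and 1.04% of members against 0.556% and 0.351% of all genes, and element A held 45.9% of the 111 called genes. SR heads differed from GFP female heads in 8 members, 5 higher and 3 lower, of 20 genes in all (0.0899% of genes tested were higher and 0.0735% lower). LOC101895918 was the most lowered in SR, at 90.2, 173 and 168 against 4609.7, 7476 and 14684 in GFP females, and N had 150.2, 144 and 121 and GFP males 361, 206 and 334, so the GFP females stood apart from all males. LOC109612165 was higher in SR, at 302, 326 and 221 against 25.7, 37.4 and 33.3, and GFP males and N were at 225, 206 and 232 and 214, 186 and 227. These are members on which SR heads resembled the other males, unlike LOC101889437 and LOC105262139. The N count was 29 and 33 without GFP female replicates 1 and 2 and 30, 16 and 20 without N replicates 1, 2 and 3. The SR count was 15 and 4 without GFP female replicates 1 and 3 and 5 and 3 without SR replicates 1 and 3.

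Most members differed in the abdomen from GFP females, 1453 of them in N, 748 higher and 705 lower, and 1440 in SR, 762 higher and 678 lower. This is 40.2% and 37.8% of members in N, against 42.1% and 34.1% of all genes and 37.0% to 40.9% and 35.7% to 37.4% on elements B to E. In SR it is 40.9% and 36.4%, against 43.7% and 32.8% of all genes and 38.5% to 43.5% and 33.7% to 36.5% on elements B to E. Genes without an element had 54.1% higher and 19.2% lower in N and 55.0% and 18.5% in SR. Under TMM scaling the members split into 659 higher and 843 lower in N and 665 higher and 831 lower in SR. LOC101891631, LOC101894721 and LOC101888152 rose most in N, and LOC101890831, LOC101891006 and LOC101900378 fell most in both groups.

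In the authors' deposited table for Md-tra treated normal against sex-reversed males, 85 of the 1891 LOC genes of element A with an adjusted p were below 0.05 in the head, 70 higher and 15 lower in normal males. This is 4.49% of them against 1.57% of all genes and 0.662% to 0.876% on elements B to E, again in the authors' deposited table. There the genes without an element had 2.16%, and element F had 2 of 35 genes (5.71%). In the abdomen the authors' deposited table had 525 of 1983 below 0.05, 26.5% against 20.8% of all genes and 20.2% to 20.8% on elements B to E. There element F had 14 of 43 genes (32.6%) and the genes without an element had 17.6%. The deposited head fold changes match the means of N and SR without SR replicate 2, with a median gap of 0.00442 on the log2 scale.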

How the data were processed

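The authors deposited 1 table per tissue of normalized counts, a signal in which each read count is divided by the size factor of its library, per the file headers. Tools named in the submitters' processing notes are HISAT2, DESeq2 1.16.1, HTSeq 0.9.1 and CASAVA 1.8, without their order, and the genome build is not given in the sources used here. Reads were recovered from the worth of 1 read per library, and 100% of nonzero values came out whole to within 0.001. The deposited log2 fold changes and adjusted p-values of the authors were used only where their table is named and to find which libraries they compared.

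Group means of log2(normalized count + 1) were compared with limma 3.58.1 (R 4.3.3, trended prior) in 1 fit over the 12 libraries of a tissue without a block, over 12537 genes in the abdomen and 12237 in the head, with Benjamini-Hochberg adjustment and a threshold of 0.05. edgeR was planned for raw counts, and limma was used because the values are normalized. The scale understates the change of genes with few reads. edgeR 4.0.16 and DESeq2 1.42.0 on the recovered reads, TMM scaling, a pseudocount of 5, other filters, blocks and left-out libraries were alternatives. On the recovered reads edgeR called 233 members in the abdomen and 11 in the head between N and SR. The fit was tested on simulated data in which all genes and groups had the same relative spread, so that test does not cover groups of unequal spread. The tissues were scaled separately, and normalized counts were not compared between them.

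Same-numbered replicates deviated together most for SR and GFP males in the abdomen, where the correlations of their deviations from the group means were 0.179 to 0.465. Other pairs reached at most 0.178 there. The replicate number equals the number in the library code in these groups, so the block stands beside that result. Same-numbered pairs also exceeded all other pairs for N and SR in the head, at 0.0617 to 0.247 against at most 0.0477. They did so more weakly in the abdomen for GFP females with GFP males (0.0236 to 0.0932) and with N (0.0284 to 0.0916). Named genes are members: by comparison, tissue and direction, those with the largest log2 difference that were called, did not overlap and averaged 50 or more in the higher group (up to 6 for GFP females against GFP males and N against SR, up to 3 otherwise), those called between N and SR in both tissues, and the 5 most abundant of each tissue. LOC101887605, LOC101890114, LOC101895041 and LOC101892644 and members separated in both tissues were added after their values were seen. The members, lists, tests and rules were chosen with earlier results of these data known. Floors of 3 reads cover counting error only, and paralogs or overlapping genes may share reads.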

Additional observations from a re-analysis of the deposited data

Results flagged for a closer look

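Many members differed between the GFP sexes in opposite directions in the 2 tissues: 209 of the 1693 members kept in both were called in both with opposite signs, and in 207 of them, which is 12.2% of members against 10.1% of all genes, the sexes did not overlap in either tissue. The difference between the tissues was not tested. Among the members named here, 4 had such opposite differences in at least 1 comparison, called and without overlap in both tissues. LOC101887605 was higher in GFP females than in GFP males in the abdomen by 5.98 on the log2 scale and lower in the head at -1.16. LOC101892526 was higher in GFP females than in GFP males in the abdomen by 4.31 on the log2 scale and lower in the head at -2.13, and N minus GFP females was -3.59 in the abdomen and 2.00 in the head. LOC101900118 was lower in GFP females than in GFP males in the abdomen, at -2.95, and higher in the head, at 1.92. Against GFP females it was higher in the abdomen by 3.14 in N and 3.55 in SR, and in the head the differences were -1.23 and -1.59. LOC101892059 was higher in SR than in GFP females in the abdomen by 7.03 and lower in the head at -2.68. The limma adjusted p-values (Benjamini-Hochberg) of these differences ranged from 5.03e-07 to 0.0459.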

How the results depend on the processing

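TMM scaling and a pseudocount of 5 moved no count of called members by over 1.5 times, but TMM scaling turned the majority direction in the 3 abdomen comparisons with GFP females. Higher and lower members went from 700 and 781 to 841 and 700 for GFP females minus GFP males, from 748 and 705 to 659 and 843 for N minus GFP females, and from 762 and 678 to 665 and 831 for SR minus GFP females. DESeq2 called more members, 539, 390 and 91 for N minus SR, N minus GFP males and SR minus GFP males in the abdomen, and 90, 440, 417, 169 and 124 for N minus SR, N minus GFP males, SR minus GFP males, N minus GFP females and SR minus GFP females in the head. edgeR called 76 and 1 for N and SR minus GFP males in the abdomen, and 29 and 4 for N and SR minus GFP females in the head. A fit of the compared groups alone gave 29 for N minus SR and 4 for N minus GFP males in the abdomen, and in the head 1 for N minus SR, 491 for N minus GFP males, 15 for N minus GFP females and 0 for SR minus GFP females. A block for the number in the library code gave 48, 0 and 1 for N minus SR, N minus GFP males and SR minus GFP males in the abdomen, and in the head 230 for the GFP sexes, 0 for N minus SR, 46 for N minus GFP males, 26 for SR minus GFP males, 12 for N minus GFP females and 2 for SR minus GFP females. GFP females and N share only 2 library code numbers with GFP males and SR, so the block by code is partly tied to those groups. The replicate block gave 5 for SR minus GFP males in the abdomen, and in the head 10 for N minus SR, 151 for N minus GFP males, 68 for SR minus GFP males, 25 for N minus GFP females and 3 for SR minus GFP females. With N replicate 2 as the only N abdomen, an alternative chosen after seeing the data, N minus SR had 10 and N minus GFP males 0. The cause of these shifts was not tested. Leaving out 1 library gave, in the abdomen, 1372 to 1456 for the GFP sexes, 120 to 388 for N minus SR, 2 to 227 for N minus GFP males, 3 to 10 for SR minus GFP males, 1348 to 1463 for N minus GFP females and 1311 to 1400 for SR minus GFP females. In the head it gave 127 to 650, 3 to 15, 25 to 234, 16 to 109, 16 to 64 and 3 to 15 in the same order. Members separated by a factor of 2 numbered 16 to 36 by the headers and 4 to 22 by the titles in the abdomen, and 15 to 21 and 1 to 3 in the head. Without the factor they numbered 121 and 141 in the abdomen and 111 and 29 in the head, and with a factor of 4 they numbered 6 and 1 in the abdomen and 4 and 0 in the head. A filter of 10 in 6 libraries left 10 in the abdomen by the headers and 0 in the head by the titles, and moved the median level of members against the other elements in GFP female abdomens from 0.02 to -0.0424.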

Other observations

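Genes without an element in the authors' tables can be placed by their neighbours in the order of the reference gene table. In that order, 17 blocks with at least 10 genes of known element had over 80% of them on element A, and they held 1854 of the 1966 element A genes named LOC that matched the table. Of the genes without an element inside these blocks, 8 of 334 tested were called between N and SR in the head, all 8 higher in N, against 2 of 1033 in the other blocks and 5 of 718 that did not match the table (limma, Benjamini-Hochberg adjusted). By the headers 18 of the 334 had no overlap between the sides in the head, which is 5.39%, against 10 of 1033, which is 0.968%, in the other blocks and 19 of 718, which is 2.65%, of those not matched. These shares are a description, and the placement of the genes on the chromosome was not tested.

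Members that did not overlap in the head by the headers were spread over the blocks of element A. The block with the most members held 39 of 544, which is 7.17%, and the other blocks with over 60 members held 1.61% to 7.60%. Of the separated members with a preceding member in the order, 3.06% followed another separated one, and 6.06% of all members in the order were separated.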
